A study of Mus musculus with 1790 samples.

Results

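The genes described here are the potassium channel genes of mouse cortical interneurons (INs), taken as every gene row whose symbol starts with Kcn. This rule also takes in 6 rows that encode no channel subunit, namely Kcnrg and antisense non-coding genes such as Kcnq1ot1. With these, there were 99 Kcn genes among the 49586 gene names of the 4 tables used here. Of these, 85 were among the 17465 rows at P15, 68 among 17465 at P30, 73 among 22351 in the embryo (E14.5) and 99 among 49585 in patch-seq, and 52 had a row in all 4. All 99 symbols matched a gene of the GENCODE M21 annotation of GRCm38.

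Potassium channels let K+ cross the membrane of a neuron and thereby set its resting potential, shorten its spikes and limit how often it fires. Voltage-gated (Kv) channels open on depolarization: the Kv1, Kv2 and Kv3 families repolarize the spike, the Kv4 family carries the A-type current that delays firing, and the Kv7 family carries the M-current that dampens repetitive firing. Calcium- and sodium-activated channels (SK, BK, Slack and Slick) follow activity, and inward rectifiers and 2-pore channels act at rest. Modifier subunits such as those of Kcns3 and Kcnf1 form no channel alone and alter Kv2 channels. Neurogliaform cells (NGCs), Lamp5-expressing INs of the upper cortical layers that release GABA diffusely, are known for late-spiking firing, in which such currents take part. The study recorded late spiking in the subtype it names Lsp1+NGCs, and a fast-spiking profile in its Dock5+NGCs.

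All cells used here carried the transgenes Htr3a-GFP and Hmx3-Cre and the reporter R26tdTOM. In this line Htr3a-GFP marks a large class of INs, and Cre driven by Hmx3 leaves permanent tdTOM in a lineage born in the preoptic area (POA). Cells with GFP from upper layers of the somatosensory cortex, sorted at either age (P15 or P30) for the presence (tdTOM+) or absence (tdTOM-) of tdTOM, went onto C1 chips. In addition, 47 tdTOM+ cells were patched in cortical slices of P14 to P25 and sequenced, and 418 tdTOM+/GFP+ cells of the POA were captured at E14.5. None of these animals had a treatment, the brains of each postnatal age were pooled, and no label ties a cell to an animal.

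The groups were 36 Dock5+NGCs and 33 Lsp1+NGCs (both tdTOM+) at P15, 76 and 35 at P30, and 20 and 27 in patch-seq. They were set beside the cells labelled Vip (87 at P15 and 62 at P30, of both sorts), the tdTOM- cells labelled Lsp1 (20 and 28) and the cells with another Lamp5 label (30 and 40). The study assigned these labels by machine learning on the same expression values, so a difference between labels is a description and not an independent result. Because each group stands for 1 sample, no test was run. A level is the count summed over a group, scaled to the total of the group in the usual CPM unit, with an exact Poisson 95% interval that covers counting error only and is too narrow where a few cells hold most counts. A log2 fold is the log2 ratio of both levels after 10 CPM was added to each, and a gene was compared when it reached 20 CPM in either group. Of the 99 genes, 56 did so in at least 1 comparison. The other 43 did not, among them all 5 genes of MinK-type subunits and 9 of the 14 of 2-pore channels, and 25 stayed under 1 CPM in every group compared.

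The subtype markers separated the labels in part. At P15 Ndnf stood at 3923 CPM in Dock5+NGCs and 991 CPM in Lsp1+NGCs, and Npy at 4193 and 10384 CPM. The Lsp1 gene itself stood at 13.0 and 14.0 CPM and did not separate them, and Hmx3 had no count in these cells. The C1 groups of NGCs summed to between 9684347 and 19168453 counts, of which Kcn genes took 0.482% to 0.571%. The patch-seq Lsp1 group was uneven: it summed to 53198151 counts, 30.0% of them from 1 cell in which oligodendrocyte markers reached 14233 CPM, so patch-seq folds are given with and without that cell.

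NGCs (Dock5+NGCs and Lsp1+NGCs together) were first compared with Vip INs. At P15, 10 of 42 Kcn genes were past 2-fold toward NGCs, against 7.04% of all genes compared, and 6 toward Vip INs, against 8.33%. At P30, 8 of 44 were past 2-fold toward NGCs, against 9.26%, and 7 toward Vip INs, against 8.96%. The median log2 fold was 0.14 at P15 and 0.09 at P30, beside -0.03 and 0.04 over all genes. Past 2-fold on the same side at both ages were Kcns3, Kcnt1, Kcnh7, Kcnc4, Kcnj4 and Kcna1 toward NGCs and Kcnf1, Kcnt2 and Kcnj2 toward Vip INs. Of the 38 Kcn genes compared at both ages, 27 lay on the same side at both and 11 on opposite sides. Neither this split nor the list of genes past 2-fold at both ages was set beside a count over all genes.

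The promoters of 4 of these genes, from both sides, are shown so that the starts of genes with opposite patterns can be read beside each other. Each run is the 250 bases before the RefSeq transcript start (GRCm38.p6), 5′ to 3′ on the strand of the gene. Capitals mark GGGCGG or its reverse complement CCGCCC (the GC box). Kcnh7, the gene of the Erg3 channel, has the window chr2:63184288-63184537 on the minus strand. Kcnj4, an inward rectifier gene, has chr15:79505242-79505491 on the minus strand, and Kcnf1, a modifier Kv gene, chr12:17176889-17177138 on the minus strand. Kcnt2, the gene of the sodium-activated channel Slick, has chr1:140245468-140245717 on the plus strand.
Kcnh7: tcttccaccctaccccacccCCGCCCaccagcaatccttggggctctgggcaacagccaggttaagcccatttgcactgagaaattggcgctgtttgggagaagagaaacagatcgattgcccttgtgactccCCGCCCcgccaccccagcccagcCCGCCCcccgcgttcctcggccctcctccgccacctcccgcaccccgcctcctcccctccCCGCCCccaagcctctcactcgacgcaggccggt
Kcnj4: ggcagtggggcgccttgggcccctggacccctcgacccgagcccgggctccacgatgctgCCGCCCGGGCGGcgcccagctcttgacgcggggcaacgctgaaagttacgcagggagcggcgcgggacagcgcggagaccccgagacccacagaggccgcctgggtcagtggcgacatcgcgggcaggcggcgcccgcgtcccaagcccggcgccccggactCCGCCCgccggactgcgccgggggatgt
Kcnf1: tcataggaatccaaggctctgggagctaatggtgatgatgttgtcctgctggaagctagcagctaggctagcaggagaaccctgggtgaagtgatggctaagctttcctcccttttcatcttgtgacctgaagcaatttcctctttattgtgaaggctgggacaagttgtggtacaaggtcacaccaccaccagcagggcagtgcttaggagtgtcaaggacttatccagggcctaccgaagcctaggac
Kcnt2: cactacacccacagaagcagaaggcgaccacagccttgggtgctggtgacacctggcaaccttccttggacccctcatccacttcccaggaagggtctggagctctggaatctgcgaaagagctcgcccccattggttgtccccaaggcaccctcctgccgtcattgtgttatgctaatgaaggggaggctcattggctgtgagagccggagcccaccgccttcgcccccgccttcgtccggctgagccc
The window of Kcnh7 held 4 GC boxes and that of Kcnj4 held 3, of which the first pair abut without overlap, and those of Kcnf1 and Kcnt2 held 0. GC content was 67.6% for Kcnh7, 77.2% for Kcnj4, 51.2% for Kcnf1 and 61.6% for Kcnt2. GC boxes were found in 32.7% of 32851 promoters of the same length and in 44.3% of 97 promoters of 72 Kcn genes. TATAAA and TGACGTCA, also searched on both strands, were in none of the 4 windows. TATAAA was in 12.4% of all promoters and 3.09% of Kcn promoters, and TGACGTCA in 1.55% and 0%. A match is a run of letters and not a measured site. These 4 windows are examples, and those of Kcns3, Kcnt1, Kcnc4, Kcna1 and Kcnj2 are not shown. Whether GC boxes go with the side of a gene was not tested.

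Kcns3, a modifier of Kv2 channels, was furthest toward NGCs at P15. Its level ran from 0 to 859.8 CPM (median 0) in single NGCs and from 0 to 283 CPM (median 0) in Vip INs. It was detected at 60.0 CPM (56.6 to 63.4) in NGCs summed and 4.99 CPM (4.19 to 5.90) in Vip INs, a log2 fold of 2.22. Single cells overlapped at 0, and 30 of 69 NGCs had a count, against 12 of 87 Vip INs. At P30 the levels of Kcns3 were 53.5 CPM (50.9 to 56.2) and 6.82 CPM (5.53 to 8.33), a log2 fold of 1.92, with a count in 45 of 111 NGCs and 13 of 62 Vip INs.

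The genes of the sodium-activated channels lay on opposite sides. Kcnt1 encodes Slack, which opens when sodium enters during firing, and Kcnt2 its relative Slick. Kcnt1 ran from 0 to 1333 CPM (median 25.2) in single P15 NGCs and from 0 to 192 CPM (median 0) in Vip INs. Its summed level was 97.9 CPM (93.7 to 102) in NGCs and 13.7 CPM (12.4 to 15.2) in Vip INs, a log2 fold of 2.18. At P30 the Kcnt1 levels were 98.2 CPM (94.7 to 102) and 17.1 CPM (15.0 to 19.4), a log2 fold of 2.00. Kcnt2 had the reverse order at both ages, and ran from 0 to 573 CPM (median 2.05) in P15 NGCs and from 0 to 3092 CPM (median 135) in Vip INs. Its summed level was 39.5 CPM (36.8 to 42.3) in NGCs and 203 CPM (198 to 208) in Vip INs, a log2 fold of -2.11. At P30 the Kcnt2 levels were 46.8 CPM (44.4 to 49.4) and 215 CPM (208 to 223), a log2 fold of -1.99. The ranges of single cells overlapped for both genes.

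Many single cells held counts of both genes. Among 69 P15 NGCs, 23 had a count of Kcnt1 only, 8 of Kcnt2 only, 27 of both and 11 of neither, and among 87 P15 Vip INs these numbers were 8, 43, 28 and 8. At P30 they were 32, 18, 32 and 29 of 111 NGCs and 9, 25, 16 and 12 of 62 Vip INs. Cells with Kcnt1 alone thus outnumbered those with Kcnt2 alone in NGCs, and the reverse held in Vip INs. With every P15 cell thinned to 149100 counts, the share of cells with a Kcnt1 count was 68.4% in Dock5+NGCs, 75.4% in Lsp1+NGCs and 31.8% in Vip INs (unthinned 69.4%, 75.8% and 41.4%). For Kcnt2 the thinned shares were 44.0%, 43.5% and 81.4% (unthinned 47.2%, 54.5% and 81.6%). Thinning left out 5 Dock5+NGCs, 2 Lsp1+NGCs and 15 Vip INs that were shallower.

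**Figure D1:**
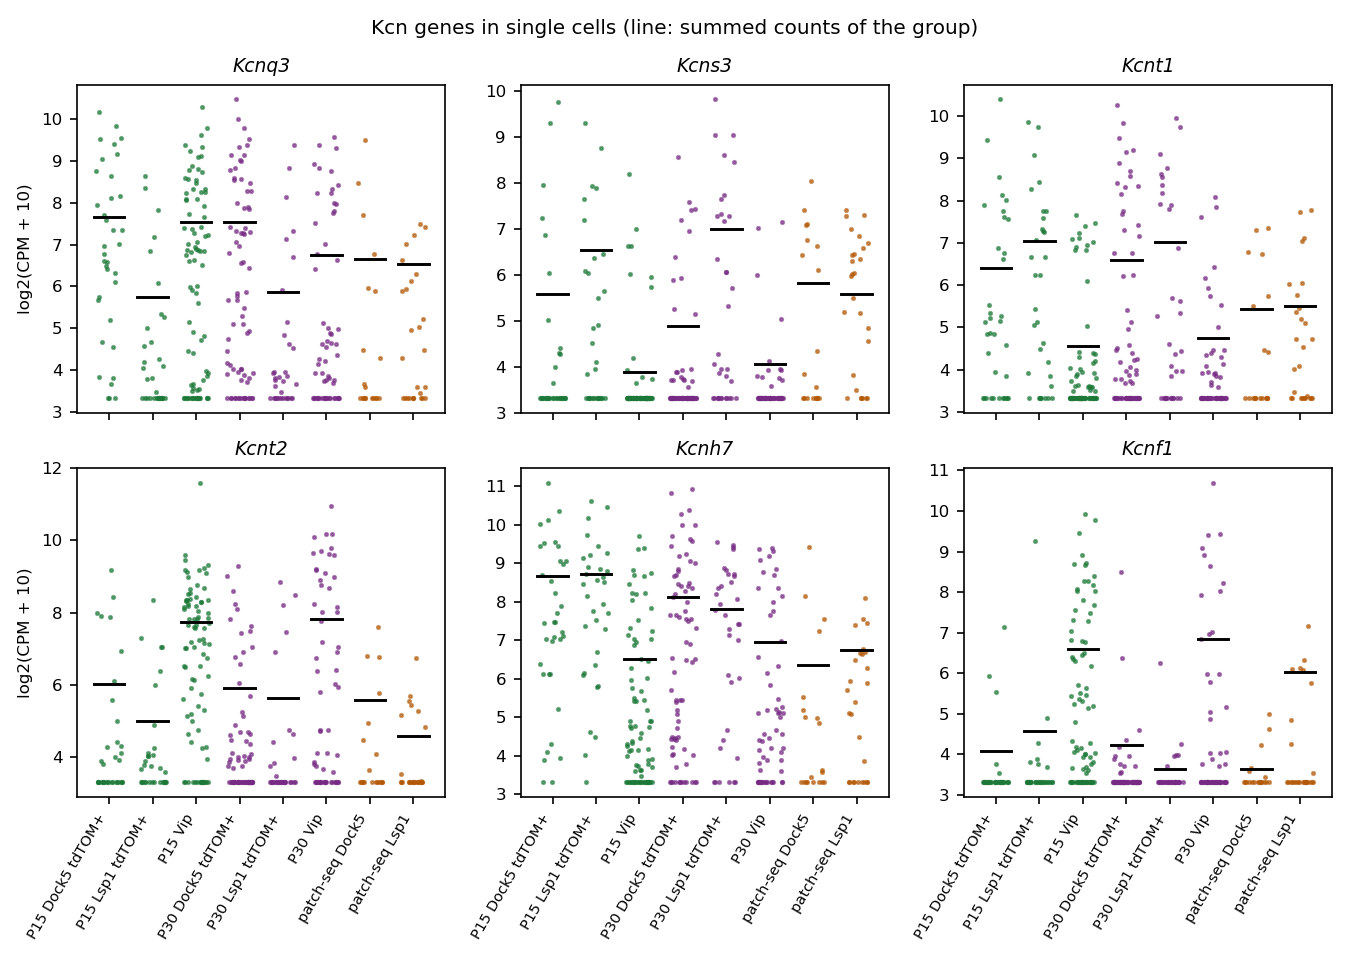
Each point is 1 cell at its log2(CPM + 10), by labelled group (P15 green, P30 purple, patch-seq orange), and each black line is the level from the summed counts of the group, for 6 Kcn genes. The lowest points are cells without a count. At both ages the Kcnt2 and Kcnf1 lines of Vip INs stand above those of both NGC subtypes, and the Kcnt1, Kcns3 and Kcnh7 lines below them.

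Among channels that act on the spike, Kcnh7 and Kcnc4 were higher in NGCs. Kcnh7 encodes Erg3, a channel of the ether-a-go-go group, and ran from 0 to 2166 CPM (median 199.8) in single P15 NGCs and from 0 to 817 CPM (median 9.95) in Vip INs. The Kcnh7 levels were 403 CPM (395 to 412) and 81.8 CPM (78.5 to 85.2), a log2 fold of 2.17, with a count in 66 of 69 NGCs and 61 of 87 Vip INs. Single cells overlapped, but the median NGC stood far above the median Vip IN. At P30 the log2 fold was 1.07, with 248 CPM (243 to 254) in NGCs and 113 CPM (107 to 118) in Vip INs. The other genes of its group differed in direction at P15, with log2 folds of -1.08 for Kcnh3, 0.16 for Kcnh1 and 0.63 for Kcnh2.

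Kcnc4 encodes Kv3.4, a fast channel that inactivates, and ran from 0 to 1933 CPM (median 83.4) in P15 NGCs and from 0 to 708 CPM (median 0) in Vip INs. The summed levels of Kcnc4 were 192 CPM (186 to 198) and 55.2 CPM (52.5 to 58.1), a log2 fold of 1.63, and of 1.34 at P30. Its relative Kcnc2 (Kv3.2) lay on the other side, with 138 CPM in NGCs and 274 CPM in Vip INs at P15 (log2 fold -0.94) and a log2 fold of -0.90 at P30, short of 2-fold. Kcnc1 (Kv3.1) had -0.23 and 0.22. Kcna1 (Kv1.1), a low-threshold channel of axons, stood at 119 CPM (114 to 124) in P15 NGCs and 50.9 CPM (48.3 to 53.6) in Vip INs, a log2 fold of 1.08, and of 1.29 at P30. The other compared Kv1 genes, Kcna2, Kcna4 and Kcna6, stayed within 2-fold at both ages.

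Kcnf1, like Kcns3 the gene of a modifier subunit, was furthest toward Vip INs at both ages. It ran from 0 to 604 CPM (median 0) in P15 NGCs and from 0 to 971 CPM (median 8.13) in Vip INs. Kcnf1 stood at 10.3 CPM (8.93 to 11.8) in P15 NGCs and 87.5 CPM (84.1 to 91.1) in Vip INs, a log2 fold of -2.27. At P30 its levels were 6.55 CPM (5.65 to 7.55) and 106 CPM (100.4 to 111), a log2 fold of -2.81. Few NGCs had any count of Kcnf1, 12 of 69 at P15 and 19 of 111 at P30, against 59 of 87 and 25 of 62 Vip INs. Counted jointly with Kcns3, 24 P15 NGCs had a count of Kcns3 only and 6 of Kcnf1 only, against 4 and 51 Vip INs, and at P30 the numbers were 38 and 12 against 7 and 19.

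The inward rectifiers lay on both sides. Kcnj4 (Kir2.3) had 32.4 CPM in P15 NGCs and 5.03 CPM in Vip INs (log2 fold 1.50) and a log2 fold of 1.01 at P30. Kcnj2 (Kir2.1) had 3.80 and 22.7 CPM (-1.24) and a log2 fold of -1.14 at P30. Both encode strong inward rectifiers that hold the membrane near rest. Kcnj9, a subunit gene of the G-protein-gated (GIRK) channels on which GABA-B receptors act, had log2 folds of 1.44 and 0.28, and Kcnj3, another such gene, of -0.41 and -1.13. Kcnj11, the pore gene of ATP-sensitive channels, had no row in the P15 table used here, and at P30 it stood at 25.1 CPM (23.3 to 27.0) in NGCs and 2.13 CPM (1.44 to 3.04) in Vip INs, a log2 fold of 1.53, with medians of 0 and 0.

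The other genes past 2-fold were so at 1 age. Toward NGCs at P15 these were Kcnk13, a 2-pore channel gene (1.55, with a count in 2 of 36 Dock5+NGCs against 10 of 33 Lsp1+NGCs), the inward rectifier gene Kcnj12 (1.17) and the SK channel gene Kcnn2 (1.03, against 0.25 at P30), beside Kcnj9. Kcnk13 stood at 26.9 CPM in Dock5+NGCs, all from those 2 cells, and at 12.9 CPM in Lsp1+NGCs. Its log2 fold fell as low as 0.02 under the alternative settings given at the end. Toward NGCs at P30 it was Kcnmb4, a BK channel beta subunit gene (1.19, against -0.45 at P15), beside Kcnj11. Toward Vip INs at P15 these were Kcnmb2 (-1.08), also of a BK beta subunit, and Kcnip4 (-1.05), which encodes a Kv4-binding protein, beside Kcnh3. At P30 they were Kcnab3, a Kv beta subunit gene (-1.62), Kcnip2, of another Kv4-binding protein (-1.47), and the 2-pore channel gene Kcnk1 (-1.29), beside Kcnj3. At P15 the log2 folds of these 3 were -0.93 for Kcnab3, -0.53 for Kcnip2 and -0.63 for Kcnk1, on the same side.

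**Figure D2:**
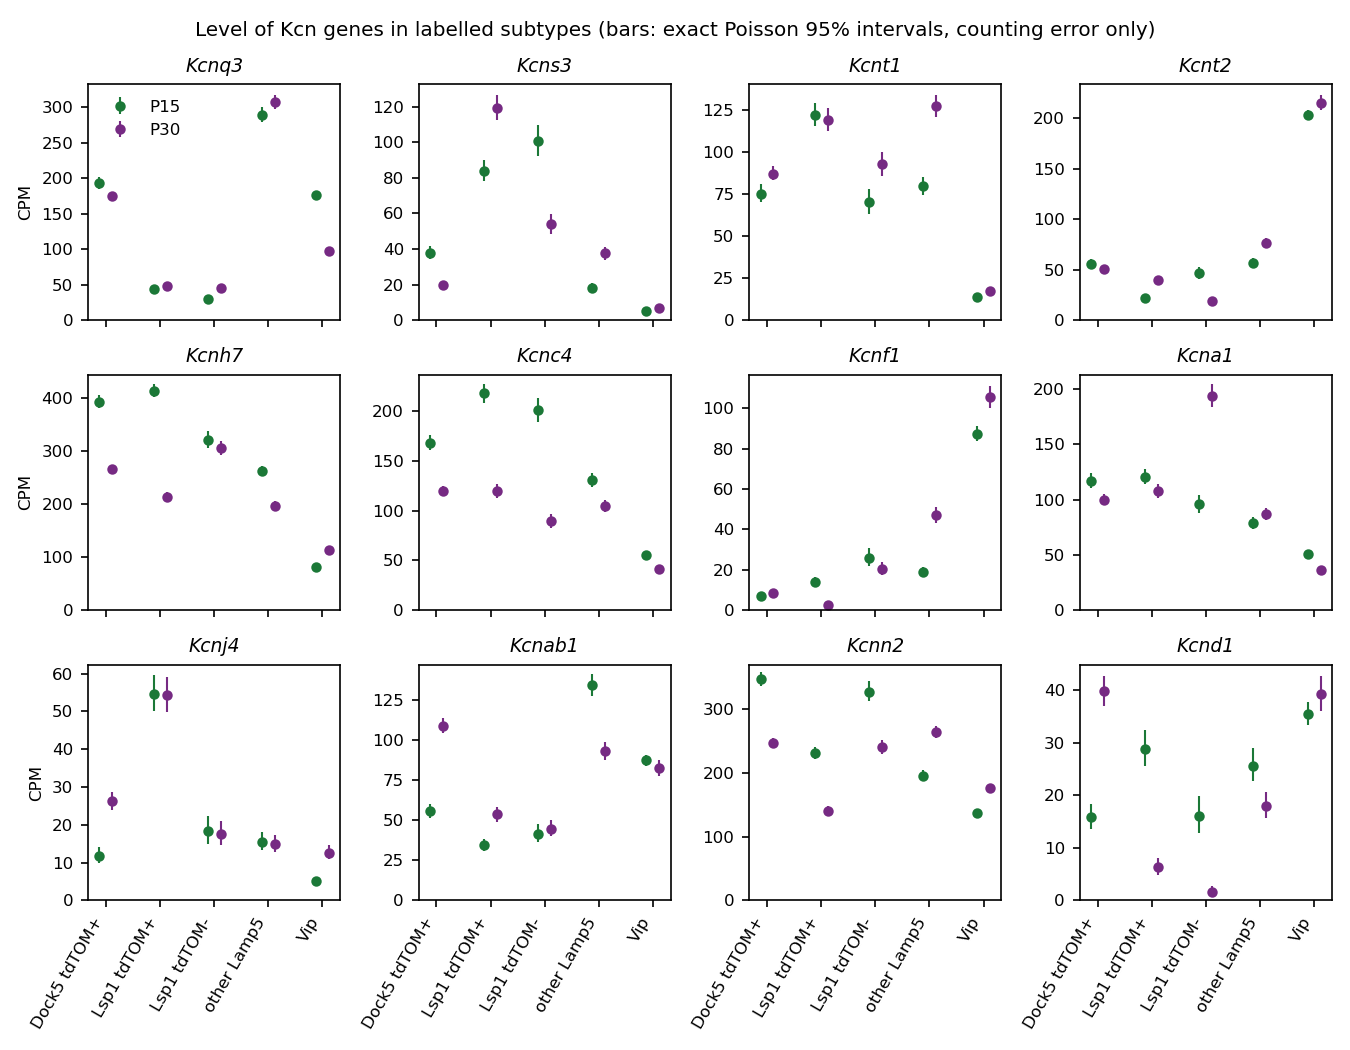
Level in CPM of 12 Kcn genes in 5 labelled groups at P15 (green) and P30 (purple), with bars for exact Poisson 95% intervals of counting error. Kcnt1, Kcnh7 and Kcnc4 are lowest in Vip INs at both ages, Kcnt2 and Kcnf1 are highest there, and Kcnq3 is lowest in both Lsp1 groups.

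The order of levels over the 5 labelled groups was the same at both ages for Kcnq3, the gene of Kv7.3, a subunit of the M-channel. Kcnq3 was highest in other Lamp5 cells (290.1 CPM at P15 and 307 at P30), then in Dock5+NGCs (193 and 175) and Vip INs (176 and 97.8), and lowest in tdTOM+ (43.6 and 48.8) and tdTOM- Lsp1 cells (29.1 and 44.7). Neighbours in that order had separate counting intervals, except both Lsp1 groups at P30. Kcns3 was highest in the Lsp1 groups, with 83.9 CPM in tdTOM+ and 101 CPM in tdTOM- cells at P15 and 119 and 53.8 CPM at P30, and lowest in Vip INs. Kcnt1 was lowest in Vip INs at both ages, and its 4 other groups stood between 70.4 and 122 CPM at P15 and between 87.4 and 128 CPM at P30, with intervals that partly met. Kcnt2 was highest in Vip INs at both ages, and its 4 other groups stood between 22.0 and 56.6 CPM at P15 and between 19.4 and 76.0 CPM at P30.

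Dock5+NGCs were then compared with Lsp1+NGCs, the same cells that made up the NGCs above. At P15, 5 of 41 Kcn genes were past 2-fold toward Dock5+NGCs, against 9.16% of all genes, and 5 toward Lsp1+NGCs, against 8.93%. At P30, 3 of 41 were past 2-fold toward Dock5+NGCs, against 9.31%, and 2 toward Lsp1+NGCs, against 8.38%. The median log2 folds were 0.12 and 0.28, beside -0.01 over all genes at each age. Kcnq3 was the only Kcn gene past 2-fold on the same side at both ages. Of the 34 Kcn genes compared at both ages, 13 were higher in Dock5+NGCs at both, 8 in Lsp1+NGCs at both and 13 differed in side, against 1787, 1805 and 3195 of 6787 genes.

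Kcnq3 ran from 0 to 1146 CPM (median 107) in single Dock5+NGCs at P15 and from 0 to 392 CPM (median 3.74) in Lsp1+NGCs. The summed levels were 193 CPM (184 to 201) and 43.6 CPM (39.5 to 47.9), a log2 fold of 1.92, with a count in 33 of 36 and 18 of 33 cells (thinned 85.7% and 44.3%). Single cells overlapped, and the highest Dock5+NGC stood above every Lsp1+NGC. At P30 Kcnq3 ran from 0 to 1411 CPM (median 43.1) in Dock5+NGCs and from 0 to 659 CPM (median 3.55) in Lsp1+NGCs. The P30 levels were 175 CPM (169 to 181) and 48.8 CPM (44.5 to 53.4), a log2 fold of 1.65, and 48.3% of the Lsp1 counts lay in 1 cell. Kcnq5, of another Kv7 subunit, lay on the other side, with log2 folds of -0.19 and -0.68, both within 2-fold.

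Kcns3 had the reverse order. At P30 it ran from 0 to 368 CPM (median 0) in Dock5+NGCs and from 0 to 896 CPM (median 6.88) in Lsp1+NGCs. The levels of Kcns3 were 19.7 CPM (17.8 to 21.8) and 119 CPM (113 to 126), a log2 fold of -2.12, with a count in 22 of 76 and 23 of 35 cells (thinned 24.2% and 62.1%, with 10 Dock5+NGCs and 1 Lsp1+NGC under 141100 counts left out). At P15 they were 38.0 CPM (34.4 to 41.9) and 83.9 CPM (78.3 to 89.9), a log2 fold of -0.97, short of 2-fold. The modifier that was higher in NGCs than in Vip INs was thus, within NGCs, higher in Lsp1+NGCs at each age. The inward rectifier gene Kcnj4 was also higher in Lsp1+NGCs, at 11.8 against 54.7 CPM at P15 (-1.57) and 26.2 against 54.3 CPM at P30 (-0.83).

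Several folds of this comparison rested on few cells. Kcnip2 had the largest at P15 (-2.49), with 2.75 CPM in Dock5+NGCs and 61.5 CPM in Lsp1+NGCs, but 1 Lsp1+NGC held 84.1% of the counts and 7 of 33 had any. Kcnn1, an SK channel gene, had 1.79 from a count in 2 of 36 Dock5+NGCs, of which 1 held 87.1% of the counts. In all, 9 of 69 P15 NGCs had a Kcnn1 count, most of them Lsp1+NGCs. Kcns1, of another modifier (1.75), had a count in 5 of 36 Dock5+NGCs, and 1 held 75.7%. Kcng2, also a modifier gene (-1.07), had a count in 1 of 36 Dock5+NGCs against 4 of 33 Lsp1+NGCs, and Kcnmb4 (-1.50) in 8 of 36 and 7 of 33. Kcnn3, an SK channel gene, was higher in Dock5+NGCs at P15 (20.5 against 2.07 CPM, 1.34) and in Lsp1+NGCs at P30 (7.93 against 27.5 CPM, -1.06), with a count in 8 of 36, 2 of 33, 7 of 76 and 7 of 35 cells. Kcnt2 had log2 folds of 1.03 and 0.28.

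Kcnn2 had a count in nearly every P15 cell and stayed within 2-fold. It ran from 0 to 1565 CPM (median 302) in single Dock5+NGCs of P15 and from 0 to 1586 CPM (median 114) in Lsp1+NGCs, with a count in 35 of 36 and 32 of 33 cells. The summed level of Kcnn2 was 348 CPM (336 to 359) and 232 CPM (222 to 242), a log2 fold of 0.56, and at P30 248 CPM (241 to 255) and 141 CPM (133 to 148) (0.78). Kcnab1, a Kv beta subunit gene, had log2 folds of 0.56 and 0.90, and Kcnc2 of 0.72 and 0.74. Kcnb2 (Kv2.2), with no row in the P15 table used here, was the most unequal after Kcnq3 and Kcnd1 on the Dock5 side at P30, with 130.4 CPM (125 to 136) for Dock5 and 40.6 CPM (36.7 to 44.8) for Lsp1 (log2 fold 1.47), with medians of 0 and 0 and a count in 36 of 76 and 15 of 35 cells.

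Kcnd1 (Kv4.1) lay on opposite sides at the ages, at -0.59 (P15) and 1.61 (P30) on the log2 scale, a difference that was not tested. At P30 Kcnd1 reached 39.9 CPM (37.1 to 42.8) in the Dock5 group but 6.30 CPM (4.83 to 8.08) in the Lsp1 group, with a count in 15 of 76 and 4 of 35 cells. The other genes of the Kv4 family, which carries the A-type current, stayed within 2-fold: Kcnd2 (Kv4.2) had -0.50 and 0.37, and Kcnd3 (Kv4.3) 0.85 and 0.28. Of the genes of Kv4-binding proteins, Kcnip1 had 0.59 and -0.03, and Kcnip4 0.12 and -0.75.

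A list of 14 accessory genes of potassium channels whose symbols do not start with Kcn was set beside them. Of the 8 compared at P15, 2 were past 2-fold toward Dock5+NGCs, Dpp10 (303 against 137 CPM, 1.09) and Vapb, of a Kv2-binding protein (1.05), and 1 toward Lsp1+NGCs, Dpp6 (112 against 420.2 CPM, -1.82). Dpp6 and Dpp10 encode proteins that speed Kv4 channels. Of the 9 compared at P30, Dpp6 alone passed 2-fold (88.5 against 274 CPM, -1.53), and Dpp10 had 0.72. In patch-seq 0 of 8 did with all cells, and Dpp6 had -0.30. Without the cell of highest depth 2 of 8 passed 2-fold there toward Dock5+NGCs, Dpp10 (90.2 against 23.1 CPM, 1.60, and 0.95 with that cell) and Cntnap2 (126 against 47.4 CPM, 1.25, and 0.90 with it), which encodes a protein that places Kv1 channels on axons. Between NGCs and Vip INs, 0 of 8 passed 2-fold at P15 and 2 of 9 did toward Vip INs at P30, Dpp6 (-1.22) and Amigo1, of a Kv2 partner (-1.11). Over all genes, between 7.04% and 9.77% passed 2-fold in each direction of these comparisons. With 8 or 9 accessory genes compared, the list is too short to set a share beside these.

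**Figure D3:**
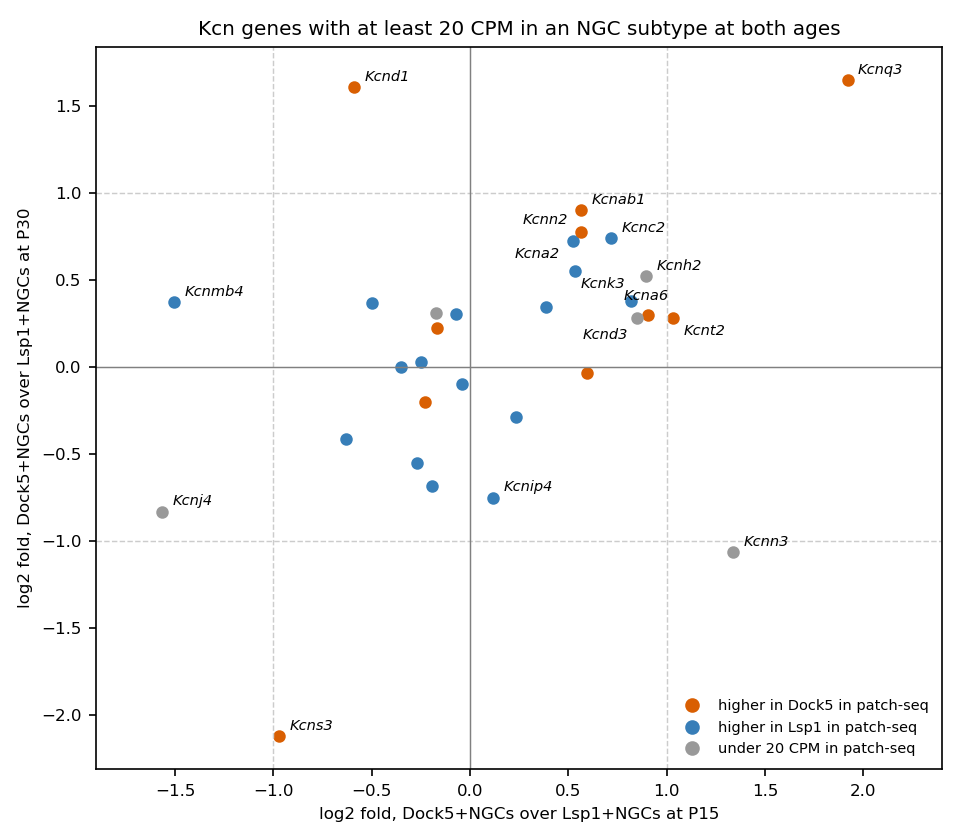
Each point is a Kcn gene reported here, at its log2 fold of Dock5+NGCs over Lsp1+NGCs at P15 (x axis) and at P30 (y axis), coloured by its side in patch-seq with all cells, with dashed lines at 2-fold. Kcnq3 lies past 2-fold on the same side at both ages (1.92 and 1.65), and Kcnn3 past it on opposite sides.

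Lsp1-labelled cells of both sorts were set side by side, since the label occurs with and without tdTOM. At P15, 3 of 36 Kcn genes were past 2-fold toward tdTOM+ cells, against 12.3% of all genes, and 1 toward tdTOM- cells, against 10.2%. At P30 these were 5 of 40, against 16.2%, and 4, against 13%. Kcnj4 was higher in tdTOM+ cells at both ages (1.19 and 1.22), and Kcns3 had -0.23 at P15 and 1.02 at P30. Kcnq3 was low in both sorts, with log2 folds of 0.45 and 0.10.

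In patch-seq cells more Kcn genes lay toward Lsp1+NGCs. Of 40 compared, 5 were past 2-fold toward Dock5+NGCs, against 8.5% of all genes, and 13 toward Lsp1+NGCs, against 9.77%, and the median log2 fold was -0.40, beside 0.09 over all genes. Without the cell of highest depth, 4 of 38 were past 2-fold toward Dock5+NGCs, against 8.25%, and 9 toward Lsp1+NGCs, against 7.22%, and the median was -0.04. That cell held the largest count of 57 of the 78 Kcn genes with a patch-seq count. Its total was 15968484 counts, against 7614463 in the next deepest cell, and the same share was not counted over all genes. The 5 oligodendrocyte markers summed to 1262 CPM in Dock5+NGCs (single cells 116 to 5693, median 682) and 6269 CPM in Lsp1+NGCs (5.52 to 14233, median 805), or 2854 CPM without the cell of highest depth. The 5 glutamatergic markers summed to 17.9 CPM (0 to 131, median 5.63) and 192 CPM (0 to 438, median 6.61), or 95.6 CPM without that cell. None of the 10 was at 0 in either group, and the part of these markers in the result was not tested. In the 12 Dock5+NGCs and 14 Lsp1+NGCs with few such counts, 7 of 38 Kcn genes were past 2-fold toward Dock5+NGCs, against 11.9%, and 8 toward Lsp1+NGCs, against 9.9%. With the mean CPM of single cells in place of sums, so that each cell weighed the same, 2 of 42 were past 2-fold toward Dock5+NGCs, against 7.47%, and 9 toward Lsp1+NGCs, against 7.49%.

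On the Dock5 side Kcnd1 had the largest fold, and ran from 0 to 458 CPM (median 0) in single Dock5+NGCs and from 0 to 37.5 CPM (median 0) in Lsp1+NGCs, with a count in 7 of 20 and 12 of 27 cells. The levels of Kcnd1 were 55.8 CPM (50.8 to 61.2) and 5.60 CPM (4.98 to 6.28), a log2 fold of 2.08, and of 2.22 without the cell of highest depth. Of the Kcnd1 counts of Dock5+NGCs, 25.9% lay in 1 cell, and fewer Dock5+NGCs than Lsp1+NGCs had any. Lsp1+NGCs were deeper here, with a median of 1037400 counts per cell against 378452 in Dock5+NGCs. Numbers of patch-seq cells with a count were not corrected for depth. Kcnab1 ran from 0 to 568 CPM (median 104) in Dock5+NGCs and from 0 to 251 CPM (median 36.0) in Lsp1+NGCs. Its levels were 184 CPM (174 to 193) and 60.8 CPM (58.7 to 62.9), a log2 fold of 1.45, and 1.32 without that cell. Kcnab1 was higher in Dock5+NGCs in 7 of the 8 sets of cells that share a label prefix, each of which held both subtypes. The other genes past 2-fold on this side were less even over those sets: Kcnd1 was higher in Dock5+NGCs in 4 and in Lsp1+NGCs in 2, Kcnn2 in 5 and 3, Kcnk12 in 4 and 3 and Kcnt2 in 3 and 2. Kcnn2 ran from 1.54 to 655 CPM (median 184) and from 3.06 to 485 CPM (median 121), and its levels were 202 CPM (192 to 212) and 85.8 CPM (83.3 to 88.3), a log2 fold of 1.14, and 0.82 without that cell. The 2-pore channel gene Kcnk12 (1.07) and Kcnt2 (1.02) were also past 2-fold, and stayed so without that cell (1.11 and 1.38). In the cells with few counts of other cell types they had 0.92 and 1.97, and as means of single cells 0.95 and 0.71.

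Among the largest folds on the Lsp1 side were those of Kcnf1 (-2.39), the BK channel gene Kcnma1 (-2.15), Kcnip2 (-1.95) and the modifier gene Kcnv1 (-1.71). The cell of highest depth held 73.0% of the Kcnf1 counts of the Lsp1 group, 63.2% of those of Kcnma1, 24.4% of Kcnip2 and 45.5% of Kcnv1. Without it the log2 folds were -1.34 for Kcnf1, -1.33 for Kcnma1, -2.04 for Kcnip2 and -1.46 for Kcnv1. In the cells with few counts of other cell types they were -0.75, -1.94, -1.56 and -0.41, so that Kcnma1 and Kcnip2 stayed past 2-fold, whereas Kcnf1 and Kcnv1 did not. At P30, however, Kcnma1 lay toward Dock5+NGCs (0.49, within 2-fold), and it had no row in the P15 table used here.

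Kcnip2 ran from 0 to 37.8 CPM (median 0) in Dock5+NGCs and from 0 to 273 CPM (median 45.0) in Lsp1+NGCs, with a count in 8 of 20 and 21 of 27 cells. These numbers were not corrected for the greater depth of Lsp1+NGCs. Over the 8 sets that share a prefix Kcnip2 was higher in Lsp1+NGCs in 7 and equal in 1. Kcnc1 (Kv3.1), a channel that lets cells fire fast, stood at 79.2 CPM (73.2 to 85.6) and 250.3 CPM (246 to 255), a log2 fold of -1.54, and of -1.74 without the cell of highest depth. Kcnk2, of a 2-pore channel, had -1.56 with that cell and -1.27 without it, and its relative Kcnk3 -1.50 and -1.52. In the cells with few counts of other cell types Kcnk2 had -1.57 and Kcnk3 -0.29, the latter at only 2.01 and 4.70 CPM. As means of single cells they had -0.35 and -1.54. Kcnk3 lay toward Dock5+NGCs at P15 (0.82) and P30 (0.38). Also past 2-fold with all cells were Kcnh3 (-1.30), Kcnq1ot1 (-1.16), Kcnj3 (-1.16) and Kcnh1 (-1.02). Without the cell of highest depth these stood at -1.31, -0.40, -0.78 and -0.55. Kcnb2, toward Dock5+NGCs at P30, had -1.43 here, at 1.22 and 20.3 CPM, and -0.75 without that cell.

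Kcnq3, past 2-fold at P15 and P30, had a log2 fold of 0.12 in patch-seq, with 91.0 CPM (84.6 to 97.8) in the Dock5 group beside 82.7 CPM (80.2 to 85.1) in the Lsp1 group. The cell of highest depth held 58.2% of the Kcnq3 counts of the Lsp1 group, and 1 Dock5+NGC held 49.3% of those of its group. The fold of Kcnq3 was 0.77 without the former and 1.95 in the cells with few counts of other cell types. Over the 8 sets that share a prefix, Kcnq3 was higher in Dock5+NGCs in 3 and in Lsp1+NGCs in 5. Kcns3 had a log2 fold of 0.24 (46.9 and 38.2 CPM), and -0.14 without the cell of highest depth. Of the 28 Kcn genes compared in all 3 collections, Kcna6, Kcnab1, Kcnn2, Kcnq3 and Kcnt2 were higher in Dock5+NGCs in each, Kcna1, Kcnc1, Kcnq5 and Kcnt1 in Lsp1+NGCs in each, and 19 were mixed. Over all genes these numbers were 888, 773 and 4256 of 5917. Without the cell of highest depth Kcnc2 joined the 5 on the Dock5 side, and Kcna1, Kcnc1 and Kcns3 made up the Lsp1 side, since Kcnq5 and Kcnt1 then stood at 0.17 and 0.21 in patch-seq (from -0.02 and -0.08). Again 19 of 28 were mixed, and over all genes the numbers were 866, 796 and 4136 of 5798.

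**Figure D4:**
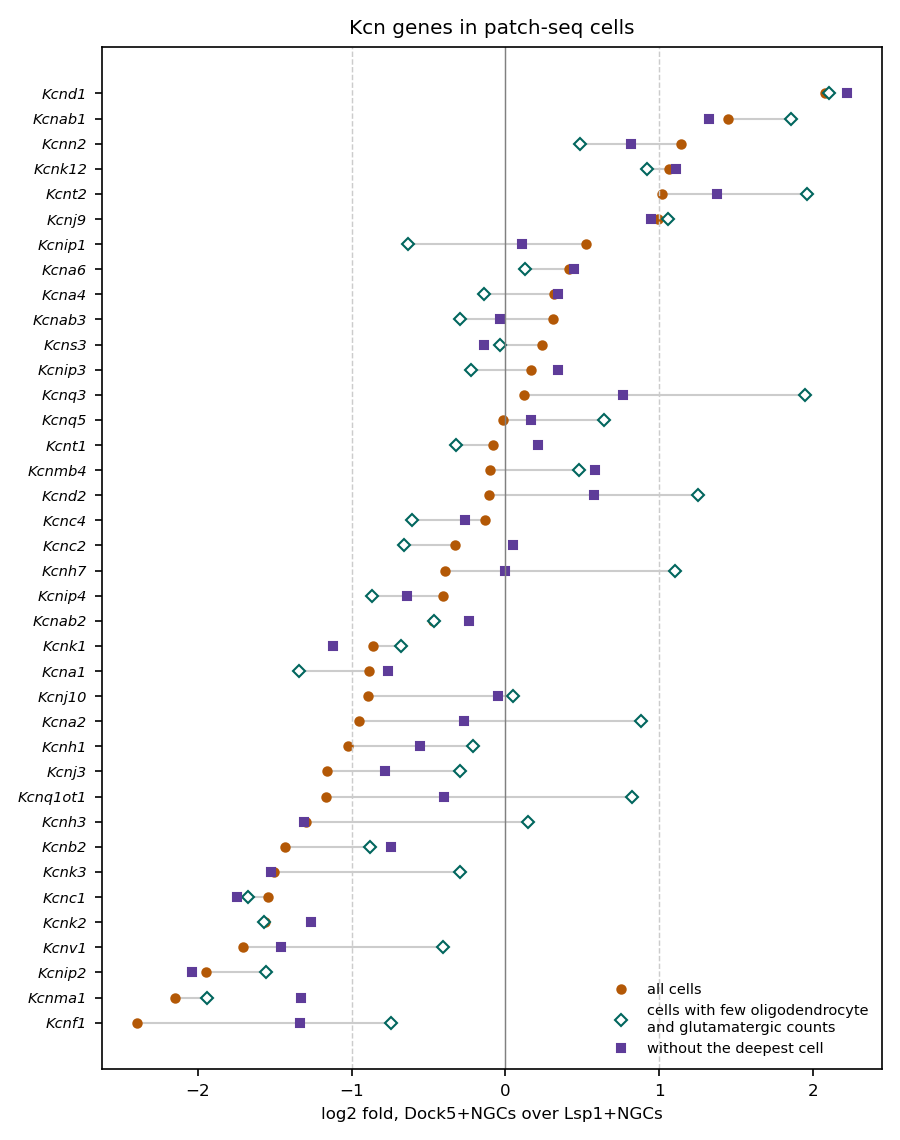
Log2 fold of Dock5+NGCs over Lsp1+NGCs for the Kcn genes reported here in patch-seq, from all cells (circles), from cells with few oligodendrocyte and glutamatergic counts (diamonds) and without the deepest cell (squares), with dashed lines at 2-fold. Kcnd1 and Kcnab1 lie past 2-fold in all 3 settings, while Kcnq3 lies between 0.12 and 1.95.

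E14.5 tdTOM+/GFP+ cells of the POA were last set beside all 301 P30 tdTOM+ cells of the cortex, the NGCs above among them. Age, brain region and chip differ together and cannot be told apart. Of the 60 Kcn genes with a row in both tables, 36 were compared, of which 33 were past 2-fold toward P30, against 23.3% of all genes, and 0 toward E14.5, against 20.3%. The median log2 fold of E14.5 over P30 was -2.47, beside -0.03 over all genes. All Kcn rows of each age (73 at E14.5 and 68 at P30) took 0.0995% of the counts at E14.5 and 0.588% at P30. These shares thus rest on partly different genes, and both include the non-coding Kcnq1ot1. Progenitor markers stood at 231 CPM at E14.5 (6 markers, single cells 0 to 7611) and at 30.0 CPM at P30 (3 of them with a row), and their part in the result was not tested. In the 154 E14.5 cells with no count of 5 such genes, 31 of 35 Kcn genes were past 2-fold toward P30, against 23.4% of all genes.

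The genes furthest toward P30 encode channels that shape spikes or follow them. Kcna2 (Kv1.2), the axonal partner of Kv1.1, ran from 0 to 732 CPM (median 0) in E14.5 cells and from 0 to 2919 CPM (median 136) in P30 cells. Its levels were 12.2 CPM (11.6 to 12.8) and 326 CPM (322 to 330.4), a log2 fold of -3.92, with a count in 60 of 418 and 275 of 301 cells. With cells thinned to 159200 counts these shares were 11.2% and 88.0% (unthinned 14.4% and 91.4%), with 12 E14.5 and 60 P30 cells left out. Kcnn2 stood at 8.78 CPM (8.32 to 9.26) and 248 CPM (245 to 252), a log2 fold of -3.78, with a count in 34 of 418 and 260 of 301 cells. Kcna1 had a count in 1 of 418 cells at E14.5 and stood at 95.4 CPM (93.2 to 97.6) at P30, where 163 of 301 cells had a count. Kcnc2, of a Kv3 channel, had 1.87 and 134 CPM (-3.61).

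By family, the 6 Kv1 genes with a row in both tables summed to 16.1 CPM at E14.5 and 549 CPM at P30 (log2 fold -4.42). The 8 inward rectifier genes summed to 12.0 and 289 CPM (-3.77), and the 3 Kv3 genes to 50.7 and 653 CPM (-3.45). The 3 Kv4 genes summed to 60.4 and 346 CPM (-2.34) and the 4 Kv7 genes to 171 and 568 CPM (-1.67). Each family with a compared gene had a lower sum at E14.5, and the distance was smallest for BK with its beta subunits (-1.60) and for Kv7.

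Kcn RNA was not uniformly low at E14.5. The non-coding Kcnq1ot1, transcribed antisense within the imprinted Kcnq1 locus, stood at 317 CPM at E14.5 and 1086 CPM at P30 (-1.74). The 3 genes within 2-fold were Kcnh2, of the Erg1 channel (15.9 and 26.3 CPM, -0.48), Kcnmb4 (22.8 and 16.0 CPM, 0.34) and Kcnn1 (20.8 and 6.90 CPM, 0.86). Kcnn1 had a count in 81 of 418 E14.5 and 27 of 301 P30 cells, and Kcnmb4 in 116 of 418 and 42 of 301. Genes under 20 CPM at both ages were not compared and lay on both sides. Kcnh4 had a count in 25.8% of E14.5 and 0% of P30 cells (thinned 22.6% and 0%). Kcnk2 had one in 23.4% and 9.30% (thinned 18.4% and 8.34%), whereas Kcnh3 had one in 0.239% and 19.6%. Of the genes that separated NGCs from Vip INs, Kcnt1 had 7.59 CPM at E14.5 against 125 CPM at P30 (-2.94), Kcnh7 24.2 against 235 CPM (-2.84) and Kcnt2 2.79 against 72.7 CPM (-2.69), while Kcns3, Kcnc4 and Kcnj4 had no row in the E14.5 table used here. Of the 9 accessory genes compared, 6 were past 2-fold toward P30, against 23.3% of all genes. Among them was Dpp10 (4.09 and 163 CPM, -3.62), whereas Dpp6 stood at 175 and 176 CPM (-0.01).

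**Figure D5:**
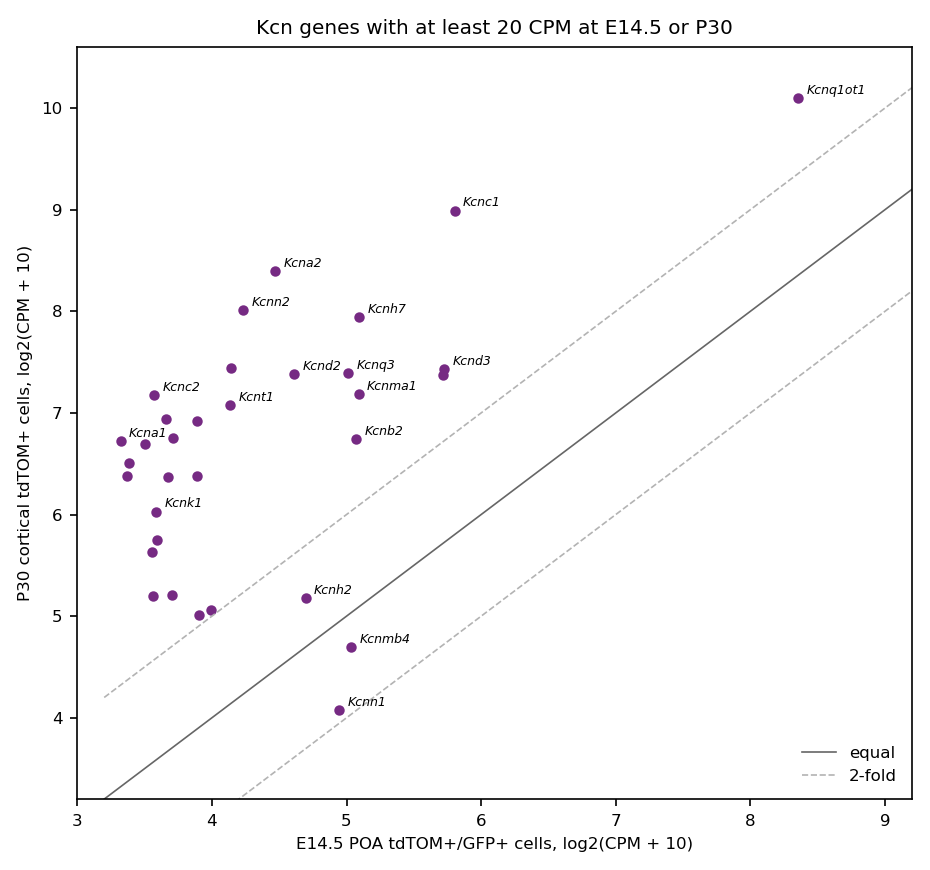
Level of the Kcn genes reported here at E14.5 (x axis) and in all P30 tdTOM+ cells (y axis), each as log2(CPM + 10), with a solid line for equal levels and dashed lines for 2-fold. All but Kcnh2, Kcnmb4 and Kcnn1 lie above the upper dashed line.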

How the data were processed

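The deposited values were whole-number counts per gene and cell. Per the labels and the methods of the study, the authors made SMARTer cDNA from cells on C1 chips, sequenced it with molecular identifiers, aligned reads to GRCm38 with STAR, removed duplicates with UMI-tools and counted uniquely mapped exonic reads by strand. Patched cells were lysed with SMART-Seq reagents and then taken through that procedure. Cells that failed their quality thresholds were left out by the authors, chambers were imaged for doublets, and non-GABAergic E14.5 clusters were removed. No doublet program was run here, and 0 columns of cell values were left unused.

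Each deposited sample is 1 cell and no label names its animal, so a group was taken as 1 sample: counts were summed per group and described without tests. Intervals are exact Poisson 95% intervals. The P15 and P30 tables hold different genes and were not compared with each other. Named genes were, in each comparison and direction, the 5 Kcn genes with the largest log2 fold among those with at least 20 CPM in either group. Their values in the other comparisons are given in part. Others are named as family examples or members of a count. For shares of cells with a count, cells were thinned to the depth at percentile 10 of the Dock5+NGCs and Lsp1+NGCs of their collection. That depth was also used for Vip INs. For E14.5 against P30 it was percentile 10 of the cells of both. Shallower cells were left out. Markers, accessory genes and members were chosen with earlier results of these data known. Alternatives changed the CPM added (1 or 100), the lowest level (50 CPM or none), the summing, the scaling and the cells used. After the data were seen, 3 were added: patch-seq cells with few oligodendrocyte and glutamatergic counts, patch-seq without the cell of highest depth, and E14.5 cells without progenitor counts. The steps were tested on simulated data. Sums were made with pandas 2.3.3 and numpy 2.4.6 in Python 3.11.15, intervals with scipy 1.17.1 and plots with matplotlib 3.10.9. Promoters came from RefSeq (GRCm38.p6) and annotation from GENCODE M21. Protein sequences were not used here. Some Kcn genes are in the counts and family sums but are not reported here by name or plotted.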

Additional observations from a re-analysis of the deposited data

Results flagged for a closer look

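For Kcnb2 and Kcnn3 the subtypes differed in opposite directions between collections, and the difference between collections was not tested. Kcnb2 had a log2 fold of Dock5+NGCs over Lsp1+NGCs of 1.47 at P30 and of -1.43 in patch-seq, where it stood at 1.22 CPM in Dock5+NGCs and 20.3 CPM in Lsp1+NGCs. Kcnn3 had 1.34 at P15 and -1.06 at P30.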

How the results depend on the processing

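Of 74 named folds past 2-fold, 68 kept their direction under every alternative run, 42 stayed past 2-fold in all but that with 100 CPM added, and 11 in all. With 100 CPM added, the Kcn genes past 2-fold between Dock5+NGCs and Lsp1+NGCs numbered 1 at P15 (10 as reported), 0 at P30 (5) and 0 in patch-seq (18), those between NGCs and Vip INs 2 at P15 (16) and 1 at P30 (15), and those between E14.5 and P30 13 (33). The shares of all genes in these settings were 0.457%, 0.227%, 0.905%, 2.06%, 1.13% and 11.7%. Between the subtypes at P15 there were 16 of 41 with 1 CPM added (25.9% of all genes), 5 of 29 with a floor of 50 CPM (14.2%) and 6 of 32 without the cell with the largest count of each gene (17%). At P30 that comparison gave 3 of 29 with a floor of 50 CPM (13.6%), 18 of 41 in cells of plate rows 1 to 20 (40.6%), 14 of 45 in rows 21 to 40 (28.1%) and 15 of 43 with tdTOM- Lsp1 cells in place of tdTOM+ ones (27.3%), and the share of all genes as reported was 17.7%. Between NGCs and Vip INs at P15 a floor of 50 CPM gave 10 of 28 (14.4%). In patch-seq, the mean CPM of single cells gave 11 of 42 (15%), and the mean over the 8 prefix sets 14 of 38 (19.9%). The direction was reversed for Kcnn1 at P15 in rows 1 to 20 (-0.20), for Kcnt2 at P15 in rows 21 to 40 (-0.13), for Kcng2 at P15 with tdTOM- Lsp1 cells (0.29), and for Kcnn3 at P30 in rows 1 to 20 (0.47) and with tdTOM- Lsp1 cells (0.78). Kcng2 also had no direction in rows 21 to 40 at P15, where neither subtype had a count and the fold was 0. Reversed too were Kcnh3 in patch-seq cells with few counts of other cell types (0.15) and Kcnmb4 at P30 between tdTOM- Lsp1 cells and tdTOM- Vip INs (-0.55). The cause was not tested. The median ratio over genes with at least 20 CPM in both groups was 0.10 on the log2 scale between E14.5 and P30 and 0.13 in patch-seq, and scaling by it moved log2 folds by no more than this. Beyond the prefix sets of patch-seq, which carry no test, no paired analysis was possible because no label pairs the cells. Depth limits genes of low level: a gene without a count in a group may still be expressed there.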

Other observations

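Kcne4, the gene of a MinK-type subunit, is part of the label of some Vip INs. At P15 it stood at 102 CPM (92.7 to 112) in the 13 Vip INs with Kcne4 in their label, of which 6 had a count, and at 0.258 CPM (0.0948 to 0.562) in the other 74, of which 2 had a count. The label was assigned from the same expression values. At P30 Kcne4 had no count in the 8 Vip INs with that label or in the other 54.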
